A study of Mus musculus with 6 samples.

Results

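The genes described here are 44 genes of the extracellular matrix that builds the fibrotic scar and the basement membrane, in the cortex of mice after photothrombotic stroke. They were chosen by symbol and function, and each symbol was mapped to the Ensembl identifier used in the authors' tables. Of the 44 genes, 42 had a value under their own identifier and 39 of them had it in each of the 6 libraries, out of 15441 genes with a value in the whole series. They were grouped by role as 5 fibrillar collagens, 10 basement membrane genes, 5 other collagens, 6 small leucine-rich proteoglycans, 6 genes of elastic fibres and microfibrils, 7 adhesive and matricellular genes, and 5 genes that process or crosslink collagen.

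Photothrombosis was induced in male C57/BL6J mice of 6 to 8 weeks by 1 mg of Rose Bengal, a photosensitive dye that clots the blood in illuminated vessels. The sensorimotor cortex was illuminated with cold light for 15 min through the intact skull. The stroke groups were taken 1, 3, 7, 14 or 28 days later, and the sham mice were operated on without illumination and taken on day 7 after the operation, so no sham of another age stands beside each day. RNA of the whole ipsilateral cortex was pooled from 3 mice per group, which gives 1 library per group and no replicate check of any difference in the text.

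The extracellular matrix of the healthy brain holds little fibrillar collagen. It is concentrated in the meninges and around larger vessels, while thin sheets of basement membrane, made of type IV collagen, laminins, nidogens and perlecan, line every capillary and the surface of the cortex. After injury, fibroblast-like cells of the vessel wall and the meninges lay down fibrillar collagens, fibronectin and periostin in the lesion core, and reactive astrocytes form a border around this fibrotic scar. Fibronectin is known for its alternatively spliced extra domains, which plasma fibronectin made by the liver lacks and which cells add in tissue repair.

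The values are FPKM, read fragments scaled to transcript length and to library size, which the authors gave for starts and ends of transcripts and for splicing events. The value of a gene is the largest of its summed starts, its summed ends and any single event. Each FPKM had 0.1 added before a log2 ratio was formed, so differences of weakly expressed genes are understated. Coordinates are those of GENCODE M21 on GRCm38. A gene was compared where it reached 1 FPKM in 1 of the 2 libraries, and a log2 ratio of at least 1 in size was counted as higher or lower, without a test.

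The libraries held 83501 (day 14) to 99187 (day 7) listed events. The day 14 library lacked 38 genes that reached a median of 5 FPKM or more elsewhere, where each other library lacked 2 to 7. The log2 ratio to sham also went down with transcript length over all genes on day 14 (Spearman's rho across genes -0.41), less so on day 1 (-0.25), and little on day 3 (0.0033), day 7 (-0.089) and day 28 (-0.036). All 5 neuronal markers were listed in every library, with a summed value between 979 FPKM on day 14 and 1462 FPKM in sham. Choroid plexus markers, which cortex itself lacks, summed to between 183 FPKM (day 3) and 564 FPKM (day 28), mostly from Ttr.

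The sequences of 4 alternative exons are shown because they carry the fibronectin and periostin results given further on. The Postn exons were chosen after their values were seen. They were read from the GENCODE M21 transcripts of mouse GRCm38, from 5′ to 3′ on the strand of the gene. Capitals mark the alternative exon, and the 12 bases in lower case on either side belong to the neighbouring exons. The extra domain B exon of Fn1 lies at chr1:71613763-71614035 on the minus strand and holds 273 bases, or 91 codons. The extra domain A exon of Fn1 lies at chr1:71603660-71603929 on the minus strand and holds 270 bases, or 90 codons. The pair of Postn exons lies on the plus strand, at chr3:54380412-54380492 with 81 bases and at chr3:54385671-54385754 with 84 bases. All 4 exons are whole numbers of codons, so that leaving them out keeps the reading frame.
Fn1 extra domain B exon: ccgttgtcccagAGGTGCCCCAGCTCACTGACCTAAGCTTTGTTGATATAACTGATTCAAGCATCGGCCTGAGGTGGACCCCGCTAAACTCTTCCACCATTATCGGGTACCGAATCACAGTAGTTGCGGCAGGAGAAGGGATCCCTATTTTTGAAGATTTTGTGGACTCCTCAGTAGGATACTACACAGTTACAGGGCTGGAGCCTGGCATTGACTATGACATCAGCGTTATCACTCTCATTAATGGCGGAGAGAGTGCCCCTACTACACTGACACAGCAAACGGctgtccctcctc
Fn1 extra domain A exon: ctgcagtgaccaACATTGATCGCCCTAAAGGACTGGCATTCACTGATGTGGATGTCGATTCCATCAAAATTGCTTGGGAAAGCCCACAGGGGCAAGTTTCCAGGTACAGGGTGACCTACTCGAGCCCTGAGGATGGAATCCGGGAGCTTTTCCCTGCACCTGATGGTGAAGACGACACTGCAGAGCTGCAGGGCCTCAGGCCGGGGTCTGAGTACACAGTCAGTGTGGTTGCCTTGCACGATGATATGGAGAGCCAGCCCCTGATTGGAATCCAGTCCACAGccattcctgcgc
Postn 81-base exon: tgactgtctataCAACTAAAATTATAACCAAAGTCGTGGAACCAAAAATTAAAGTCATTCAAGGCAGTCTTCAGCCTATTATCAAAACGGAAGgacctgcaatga
Postn 84-base exon: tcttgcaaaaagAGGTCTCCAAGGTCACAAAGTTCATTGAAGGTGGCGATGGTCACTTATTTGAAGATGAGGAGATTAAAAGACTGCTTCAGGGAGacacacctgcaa

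The median of the matrix genes was close to the level of sham on day 1, above it from day 3 to day 14, and back near it on day 28. On day 1, 5 of the 34 members compared, or 14.7%, were higher (5.11% of all genes) and 0 lower (4.48%). On day 3 the count was 27 of 39 higher (8.54% of all genes) and 1 lower (2.53% of all genes). On day 7 it was 26 of 39 higher (8.53% of all genes) and 0 lower (2.12%), and on day 14 it was 20 of 38 higher (8.97%) and 0 lower (6.92%). On day 28, 0 of 29 were higher (3.68% of all genes) and 1 was lower (2.79%). Since a gene could pass the minimum through the library where it was high, the medians were taken without it.

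Over the members listed in both libraries, the median log2 ratio was 0.07 on day 1 (39 members), 1.10 on day 3 (40), 1.19 on day 7 (40), 1.06 on day 14 (39) and -0.09 on day 28 (40). Over all genes listed in both libraries the same median was between 0.01 and 0.11. On day 3, 38 of the 40 members lay above sham, where 53.0% of all genes did. On day 28, 17 of 40 did, where 53.6% of all genes did. The median of the members was thus above that of all genes on day 3, 7 and 14 and close to it on day 1 and 28. By group, the day 1 median was highest for the 7 adhesive and matricellular genes (0.78). Of these, 5 lay above sham on day 1, where 51.4% of all genes did. In bulk RNA, more cells of a type and more RNA per cell cannot be told apart.

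**Figure D1:**
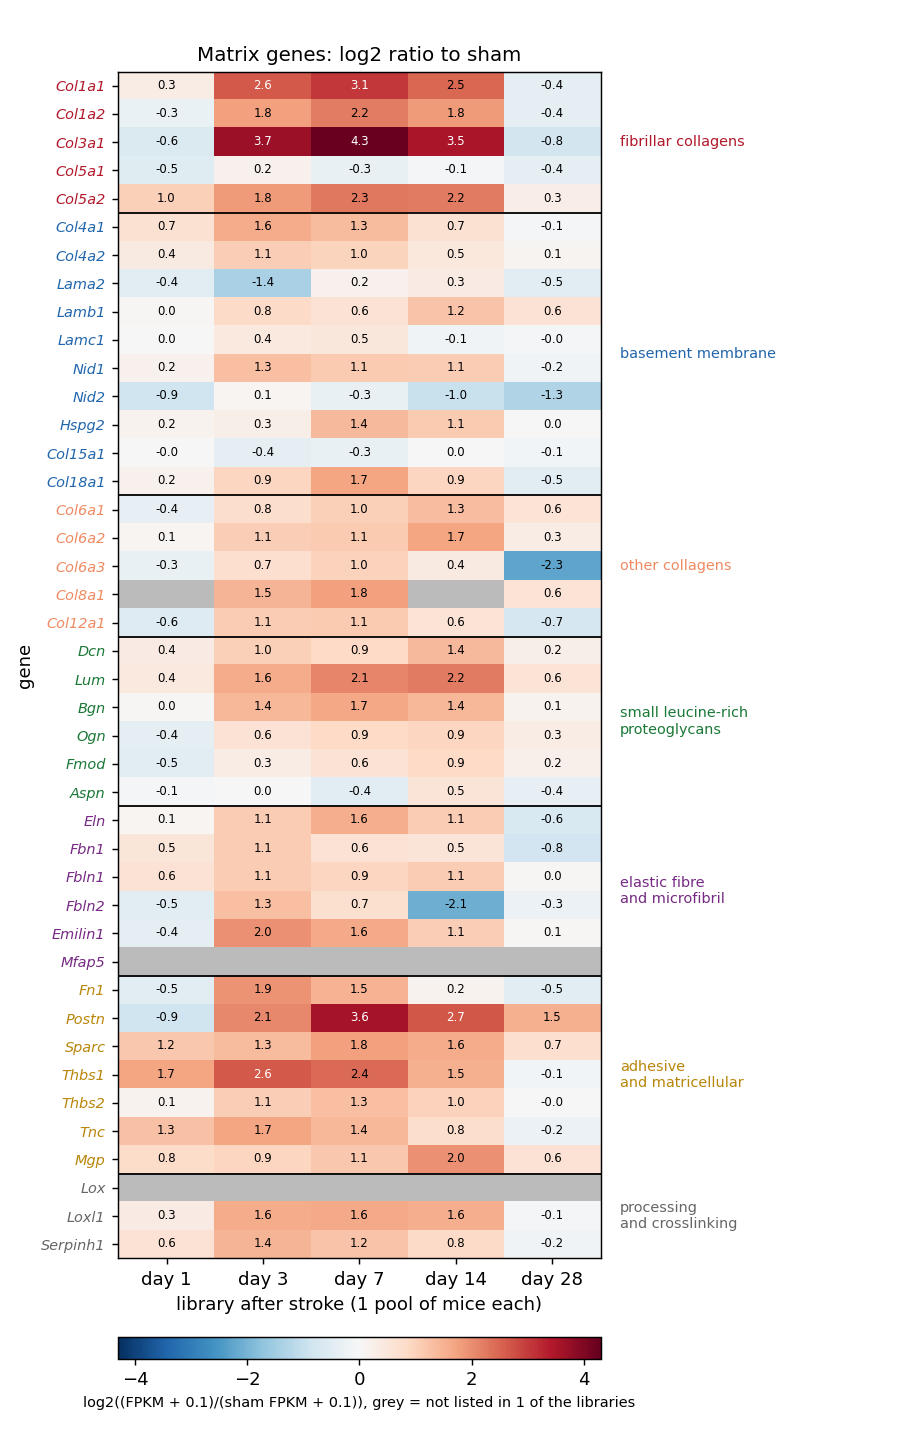
Log2 ratio to sham of the 42 members with a value, in rows grouped by role, for the 5 libraries after stroke in columns (log2 of FPKM plus 0.1 over sham FPKM plus 0.1, 1 pool of mice each). Red is above sham, blue is below, and grey means not listed in 1 of the libraries compared; the darkest cell is Col3a1 on day 7 with 4.25.

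From day 3 to day 14 the fibrillar collagens had the highest median ratio of the groups, while on day 1 and day 28 they did not. Col1a1 and Col1a2 encode the chains of type I collagen, the main fibre of scars, and Col3a1 encodes type III collagen, which is laid down early in wounds. Col1a1 (ENSMUSG00000001506, chr11:94936224-94953042) stood at 2.46 FPKM in sham, 3.07 on day 1, 15.7 on day 3, 21.2 on day 7, 13.9 on day 14 and 1.79 on day 28. Col1a2 (ENSMUSG00000029661, chr6:4504814-4541544) was at 6.90 FPKM in sham, 5.70 on day 1, 23.4 on day 3, 31.8 on day 7, 24.8 on day 14 and 5.23 on day 28. Col3a1 (ENSMUSG00000026043, chr1:45311538-45349706) was at 1.04 FPKM in sham, 0.639 on day 1, 14.6 on day 3, 21.6 on day 7, 12.8 on day 14 and 0.563 on day 28.
For all 3 genes the libraries of day 3, 7 and 14 were high and those of sham, day 1 and day 28 were low, with day 7 the highest. On day 7 the log2 ratio to sham was 3.05 for Col1a1, 2.19 for Col1a2 and 4.25 for Col3a1. For Col3a1 this is a 20.8-fold level, the largest of the members with a value in sham. The day 28 values were the lowest of the 6 libraries for all 3 genes, with log2 ratios of -0.44, -0.39 and -0.78 to sham, none past the threshold.

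The type V chains, which set the diameter of collagen fibrils, differed from each other. Col5a2 was at 0.731 FPKM in sham, 1.58 on day 1, 2.88 on day 3, 3.89 on day 7, 3.79 on day 14 and 0.904 on day 28. It was the only fibrillar collagen past the threshold on day 1, and barely so. The Col5a2 ratio there was 1.02, and it lay under the threshold with a pseudocount of 1 (0.58) or with each library scaled to a median ratio of 0. On day 7 it reached 2.26. Col5a1 was at 2.003 FPKM in sham, 1.37 on day 1, 2.30 on day 3, 1.60 on day 7, 1.93 on day 14 and 1.47 on day 28, and passed the threshold on no day. Col5a2 and Col3a1 are neighbours, 24614 bases apart on chromosome 1 and on opposite strands. Their FPKM ratio (Col3a1 over Col5a2) was 1.42 in sham, 0.404 on day 1, 5.56 on day 7 and 0.622 on day 28, so this pair did not keep a fixed proportion.

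The balance of chains within type I collagen, a trimer in which Col1a1 chains outnumber Col1a2 chains in most tissues, also differed between libraries. Col1a1 over Col1a2 was 0.357 in sham, 0.538 on day 1, 0.670 on day 3, 0.666 on day 7, 0.562 on day 14 and 0.343 on day 28. Col3a1 over Col1a1 was 0.422 in sham, 0.208 on day 1, 0.930 on day 3, 1.02 on day 7, 0.921 on day 14 and 0.314 on day 28. Both ratios were highest in the day 3 and day 7 libraries and lowest, or next to lowest, on day 28.

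The basement membrane genes showed lower ratios, and earlier maxima for type IV collagen. Col4a1 and Col4a2 encode the chains of the network-forming collagen of every basement membrane, and start head to head on chromosome 8 with 22 shared bases on opposite strands. Col4a1 was at 3.92 FPKM in sham, 6.21 on day 1, 12.1 on day 3, 10.1 on day 7, 6.28 on day 14 and 3.67 on day 28. Col4a2 was at 4.999 FPKM in sham, 6.60 on day 1, 10.5 on day 3, 9.78 on day 7, 6.96 on day 14 and 5.49 on day 28. Both were highest on day 3 and higher on day 1 than in sham, in contrast to type I and III collagen, whose maximum was on day 7. The steps behind this order were under the threshold. Day 7 over day 3 had log2 ratios of -0.26 for Col4a1 and -0.11 for Col4a2. For Col1a1, Col1a2 and Col3a1 they were 0.43, 0.44 and 0.57. The log2 ratio on day 3 was 1.60 for Col4a1 and 1.06 for Col4a2, and the ratio of the pair went from 0.783 in sham to 1.15 on day 3 and 0.669 on day 28.

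Among the laminin chains, which form the cell-facing sheet of basement membranes, 1 was below the threshold and 1 above it, on different days. Lama2, the alpha 2 chain found in vascular and astrocytic basement membranes, was at 2.30 FPKM in sham, 1.66 on day 1, 0.821 on day 3, 2.63 on day 7, 2.94 on day 14 and 1.61 on day 28. Its log2 ratio of -1.38 on day 3 was the only one of the members past the threshold on the lower side on that day. Of all genes, 2.53% were lower on day 3. With a pseudocount of 1 the Lama2 ratio there was -0.86, not past the threshold. With summed starts 0 members were lower on day 3, and with summed ends 1 was. Lamb1 was at 1.40 FPKM in sham, 1.45 on day 1, 2.57 on day 3, 2.23 on day 7, 3.42 on day 14 and 2.21 on day 28, and passed the threshold on day 14 alone (1.23). In contrast, Lamc1, the gamma 1 chain shared by most laminins, passed it on no day. It was at 3.64 FPKM in sham, 3.70 on day 1, 4.95 on day 3, 5.17 on day 7, 3.28 on day 14 and 3.54 on day 28. Lamb1 on day 14 depended on how the gene value was made, as its summed starts gave a log2 ratio of -3.59.

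The nidogens, which link laminin to type IV collagen, differed from each other. Nid1 was at 1.60 FPKM in sham, 1.83 on day 1, 4.02 on day 3, 3.64 on day 7, 3.52 on day 14 and 1.41 on day 28. Nid2 was at 2.05 FPKM in sham, 1.08 on day 1, 2.17 on day 3, 1.61 on day 7, 0.999 on day 14 and 0.772 on day 28. Nid1 over Nid2 was 0.781 in sham and 3.52 on day 14. On day 28 Nid2 (-1.30) was the only one of the 29 members compared that was lower, where 2.79% of all genes were. Col6a3, under the minimum of 1 FPKM in sham and on day 28, had a ratio of -2.25 there. Nid1 was above the threshold on day 3, 7 and 14 (1.28, 1.14 and 1.09), although its summed starts gave -1.28 on day 14.

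Hspg2 encodes perlecan, the large heparan sulphate proteoglycan of basement membranes. It was at 1.14 FPKM in sham, 1.28 on day 1, 1.39 on day 3, 3.20 on day 7, 2.59 on day 14 and 1.17 on day 28. Col18a1, whose C-terminal fragment is endostatin, was at 0.869 FPKM in sham, 1.00 on day 1, 1.74 on day 3, 3.05 on day 7, 1.73 on day 14 and 0.591 on day 28. Perlecan was thus near its sham level while type IV collagen was at its maximum, and its day 7 value followed, with a log2 ratio of 1.41, beside 1.70 for Col18a1. Col15a1, the relative of Col18a1, was at 0.999 FPKM in sham, 0.999 on day 1, 0.723 on day 3, 0.788 on day 7, 1.005 on day 14 and 0.902 on day 28, and so lay within a narrow range.

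Setting the fibrillar collagens against the basement membrane genes, the sum over the 5 fibrillar collagens was 13.1 FPKM in sham, 12.4 on day 1, 58.9 on day 3, 80.1 on day 7, 57.2 on day 14 and 9.96 on day 28. The sum over the 10 basement membrane genes was 22.9 FPKM in sham, 25.8 on day 1, 41.0 on day 3, 42.2 on day 7, 32.7 on day 14 and 21.4 on day 28. The fibrillar sum was below that of the basement membrane in sham, day 1 and day 28, and above it on day 3, 7 and 14. Fibrillar over basement membrane was 0.573 in sham, 0.479 on day 1, 1.44 on day 3, 1.90 on day 7, 1.75 on day 14 and 0.466 on day 28. On day 7 the fibrillar sum was 6.10 times that of sham and the basement membrane sum 1.84 times.

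By gene, the median log2 ratio of the fibrillar collagens was -0.27, 1.84, 2.26, 2.23 and -0.43 in the 5 libraries after stroke, in order of time. That of the basement membrane genes was 0.10, 0.63, 0.79, 0.57 and -0.11. With a minimum of 1 FPKM the basement membrane medians were 0.83 on day 3 and 0.95 on day 7, and the fibrillar ones were the same. On day 3, 7 and 14, 4 of the 5 fibrillar collagens had a ratio above that of each of the 10 basement membrane genes, and the exception was Col5a1. On day 1 this held for 1 of 5 (Col5a2), and on day 28 for 0. The gap between the medians was 1.21 on day 3, 1.47 on day 7 and 1.66 on day 14, and it was -0.37 on day 1 and -0.31 on day 28. With summed starts alone the basement membrane median on day 14 was -1.71 over 9 genes, and the fibrillar median 1.29 over 4.

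**Figure D2:**
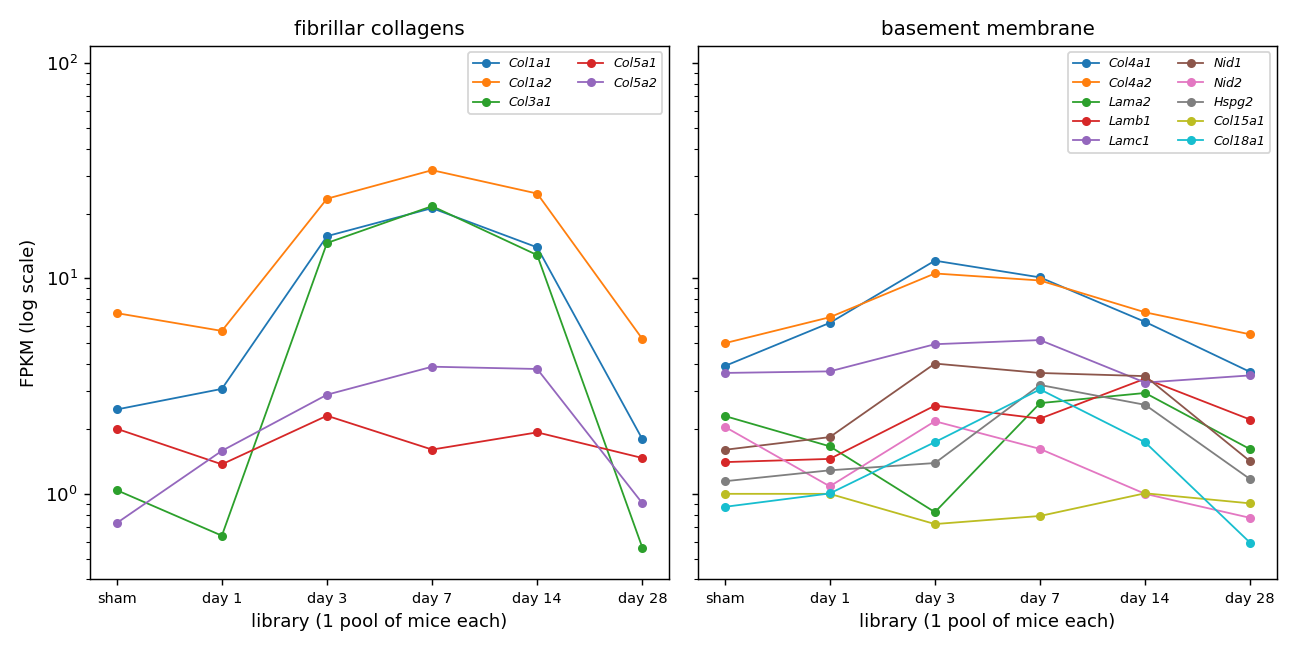
FPKM (log scale) of the 5 fibrillar collagens (left) and the 10 basement membrane genes (right) in the 6 libraries, 1 pool of mice each, with a line per gene. Col1a1, Col1a2 and Col3a1 lie between 12.8 and 31.8 FPKM from day 3 to day 14, while Col4a1 and Col4a2 are highest on day 3 with 12.1 and 10.5 FPKM.

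The other collagens include the beaded filaments of type VI, the short-chain type VIII of vessel walls and type XII, which coats fibrils. Col6a1 was at 11.3 FPKM in sham, 8.74 on day 1, 19.2 on day 3, 22.9 on day 7, 28.1 on day 14 and 16.9 on day 28. Col6a2, which lies 85161 bases from Col6a1 on chromosome 10, was at 2.92 FPKM in sham, 3.08 on day 1, 6.20 on day 3, 6.45 on day 7, 9.69 on day 14 and 3.70 on day 28. Both chains were highest on day 14, later than types I, III and IV, with log2 ratios of 1.31 and 1.70. Day 14 over day 7 had log2 ratios of 0.29 for Col6a1 and 0.58 for Col6a2, under the threshold. Of all genes, 26.8% were highest on day 14. The longest transcripts have 4100 (Col6a1) and 4912 bases (Col6a2), and the part of transcript length in this order was not tested. The third chain, Col6a3, was at 0.971 FPKM in sham, 0.753 on day 1, 1.67 on day 3, 2.03 on day 7, 1.32 on day 14 and 0.125 on day 28, and so was highest on day 7. The summed starts of Col6a1 gave a log2 ratio of -0.23 on day 14.

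Col12a1 was at 1.67 FPKM in sham, 1.10 on day 1, 3.72 on day 3, 3.73 on day 7, 2.57 on day 14 and 0.971 on day 28. Col8a1 was at 0.578 FPKM in sham, 1.77 on day 3, 2.22 on day 7 and 0.913 on day 28, and was not listed on day 1 and day 14. Both were past the threshold on day 3 and day 7.

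The small leucine-rich proteoglycans bind collagen fibrils and set their spacing. Dcn (decorin) was at 13.1 FPKM in sham, 17.0 on day 1, 26.9 on day 3, 24.0 on day 7, 34.7 on day 14 and 15.6 on day 28. Lum (lumican), its neighbour at a distance of 46984 bases on chromosome 10, was at 1.37 FPKM in sham, 1.87 on day 1, 4.35 on day 3, 6.18 on day 7, 6.87 on day 14 and 2.14 on day 28. Bgn (biglycan) was at 6.34 FPKM in sham, 6.53 on day 1, 17.4 on day 3, 20.2 on day 7, 17.2 on day 14 and 7.04 on day 28. In sham, decorin was thus above every fibrillar collagen, and Lum had the highest ratio of the group, with log2 values of 1.59, 2.09 and 2.24 on day 3, 7 and 14. Biglycan differed little from day 3 to day 14.

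Ogn (osteoglycin) was at 3.53 FPKM in sham, 2.67 on day 1, 5.46 on day 3, 6.54 on day 7, 6.85 on day 14 and 4.44 on day 28. Fmod (fibromodulin) was at 8.75 FPKM in sham, 6.15 on day 1, 11.01 on day 3, 13.5 on day 7, 16.05 on day 14 and 10.3 on day 28. Both lay below sham on day 1 and were highest on day 14, with log2 ratios there of 0.93 and 0.87, under the threshold. Aspn (asporin) was at 0.796 FPKM in sham, 0.754 on day 1, 0.807 on day 3, 0.559 on day 7, 1.21 on day 14 and 0.601 on day 28, and reached 1 FPKM on day 14 alone. These proteoglycan transcripts are short (longest transcripts of 2329 to 4692 bases, against 5348 to 8406 for the fibrillar collagens), and short transcripts had higher ratios over all genes on day 14. The part of this in the late maximum was not tested gene by gene.

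Elastic fibres consist of an elastin core in a sheath of fibrillin microfibrils. Eln (elastin) was at 2.24 FPKM in sham, 2.40 on day 1, 4.86 on day 3, 6.84 on day 7, 4.88 on day 14 and 1.39 on day 28. Emilin1, a glycoprotein between elastin and the microfibrils, was at 0.933 FPKM in sham, 0.670 on day 1, 3.93 on day 3, 3.12 on day 7, 2.06 on day 14 and 0.978 on day 28. Fbn1 (fibrillin 1) was at 2.26 FPKM in sham, 3.32 on day 1, 4.98 on day 3, 3.54 on day 7, 3.35 on day 14 and 1.24 on day 28. Elastin followed the order of type I collagen, with its maximum on day 7, while Emilin1 and Fbn1 were highest on day 3. The largest log2 ratio of the group was 1.96, for Emilin1 on day 3.

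The fibulins, which join elastic fibres to other matrix, were highest on day 3. Fbln1 was at 4.87 FPKM in sham, 7.60 on day 1, 10.5 on day 3, 9.30 on day 7, 10.5 on day 14 and 4.996 on day 28. Fbln2 was at 0.916 FPKM in sham, 0.620 on day 1, 2.38 on day 3, 1.52 on day 7, 0.135 on day 14 and 0.754 on day 28. Fbln1 differed little from day 3 to day 14, while the low Fbln2 value on day 14 stands in the library with the most unlisted genes. Mfap5 stayed under 1 FPKM throughout, from 0.0144 to 0.723 FPKM in the 4 libraries that list it, and was not compared.

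Fibronectin is the provisional matrix on which collagen is assembled. Fn1 (ENSMUSG00000026193, chr1:71585520-71653200) was at 9.76 FPKM in sham, 6.97 on day 1, 37.7 on day 3, 28.0 on day 7, 10.9 on day 14 and 7.10 on day 28. It was high on day 3 and 7 only and was back within a log2 ratio of 0.16 of sham on day 14, when type I and III collagen still stood at ratios of 1.83 to 3.50. From day 7 to day 14 its log2 ratio was -1.35, and besides it Fbln2 was the only member listed in both libraries that was past the threshold. With unlisted genes counted as 0, 4 of 41 members were lower in this step, near the share of all genes (8.52%). The longest transcript of Fn1 has 8315 bases, against 5348 to 5930 for Col1a1, Col1a2 and Col3a1. Long transcripts had lower ratios over all genes on day 14, and the part of this in the Fn1 value was not tested.

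Splicing of Fn1 was read from the paired forms of each exon skipping event, a readout that the choice of members did not use. For the extra domain A exon, the form with the exon was at 0.423 FPKM in sham, 0.0312 on day 1, 12.8 on day 3, 5.34 on day 7, 1.47 on day 14 and 0.000129 on day 28. The form without it was at 9.34, 6.94, 24.9, 22.6, 9.44 and 7.10 FPKM in the same order. The exon was thus in 4.33% of Fn1 in sham, 0.447% on day 1, 34.0% on day 3, 19.1% on day 7, 13.5% on day 14 and 0.00182% on day 28. The form with it was 30.3 times higher on day 3 than in sham, and the form without it 2.66 times. The first of these folds rests on 0.423 FPKM in sham, and the shares on day 1 and day 28 rest on still lower values.

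The extra domain B exon did not follow. The form with it was at 4.85 FPKM in sham, 2.26 on day 1, 8.83 on day 3, 5.33 on day 7, 1.47 on day 14 and 2.09 on day 28. The form without it was at 2.41, 1.83, 21.4, 15.5, 7.13 and 3.53 FPKM. Its share was highest in sham (66.8%) and on day 1 (55.3%), and lower on day 3 (29.2%), day 7 (25.6%), day 14 (17.1%) and day 28 (37.1%). The pair of forms covered 58.6% (day 1) to 80.3% (day 3) of the gene value for domain B and 100% for domain A. The shares of the exons printed above therefore moved in opposite directions between sham and day 3. The depth of the libraries is unknown, so no interval is given for a share.

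**Figure D3:**
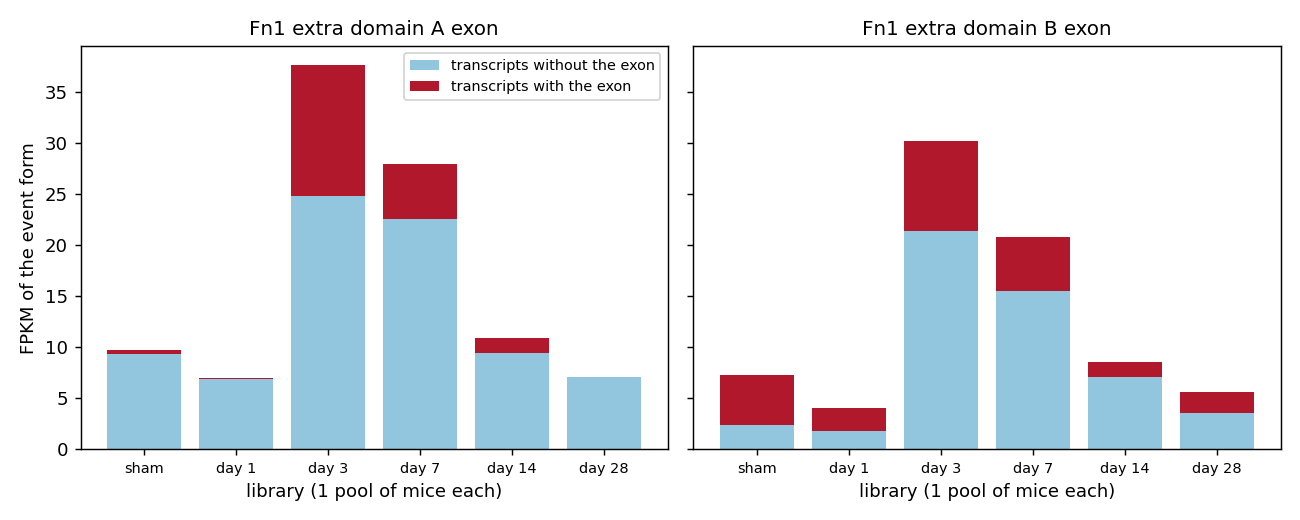
FPKM of Fn1 transcripts with (red) and without (blue) the extra domain A exon (left) and the extra domain B exon (right) in the 6 libraries, 1 pool of mice each, stacked. The red part on the left is 12.8 FPKM on day 3 and under 0.5 FPKM in sham, day 1 and day 28.

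Postn encodes periostin, a matricellular protein of scars and of periosteum. It was at 0.208 FPKM in sham, 0.0694 on day 1, 1.19 on day 3, 3.61 on day 7, 1.88 on day 14 and 0.793 on day 28. The day 7 value is a 17.3-fold level, and the log2 ratios were 2.06, 3.59 and 2.69 on day 3, 7 and 14. Periostin was the member with the largest ratio left on day 28 (1.53), below the minimum of 1 FPKM. The 84-base exon was in 32.0% of the paired forms on day 3 and 32.4% on day 7, against 0.155% on day 14 and 1.52% on day 28. For the 81-base exon, the form with it was at 0.588 FPKM and the form without it at 2.84 on day 7, while on day 14 and 28 the form with it alone was listed, at 1.81 and 0.527 FPKM. The forms listed for the 81-base exon thus differed between day 7 and day 14, and for the 84-base exon both forms were listed on each of these days with different shares, on values near or under 3 FPKM.

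Sparc and Mgp were the most abundant members. Sparc, a collagen-binding protein that endothelial cells and glia also make, was at 75.9 FPKM in sham, 171 on day 1, 193 on day 3, 256 on day 7, 228 on day 14 and 126 on day 28. Mgp, the matrix Gla protein that prevents calcification of vessels, was at 30.0 FPKM in sham, 51.5 on day 1, 57.1 on day 3, 66.6 on day 7, 119 on day 14 and 46.4 on day 28. Both were above sham in all 5 libraries after stroke, Sparc past the threshold from day 1 (1.17) to day 14 and Mgp on day 7 (1.15) and day 14 (1.98). The longest transcript of Mgp has only 715 bases, and its day 14 value is in the library where short transcripts stood higher.

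Thbs1 and Tnc were already above sham on day 1, and Thbs2 stood close to it. Thbs1, which activates latent TGF-beta and blocks vessel growth, was at 0.656 FPKM in sham, 2.35 on day 1, 4.62 on day 3, 3.95 on day 7, 2.10 on day 14 and 0.602 on day 28. Tnc, a glycoprotein of wounds that modulates cell adhesion, was at 1.00 FPKM in sham, 2.56 on day 1, 3.47 on day 3, 2.84 on day 7, 1.76 on day 14 and 0.831 on day 28. Thbs2, the relative of Thbs1, was at 1.33 FPKM in sham, 1.48 on day 1, 2.91 on day 3, 3.45 on day 7, 2.76 on day 14 and 1.31 on day 28. With Sparc, Col5a2 and Lox, Thbs1 (1.70) and Tnc (1.27) were the members higher on day 1. With a pseudocount of 1 the Tnc ratio on day 1 was 0.83, under the threshold. On day 14 the paired forms of a Tnc exon summed to 124.9% of the Tnc gene value, which is a lower bound. Thbs2 was highest on day 7.

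Collagen is folded in the endoplasmic reticulum by the chaperone HSP47, encoded by Serpinh1, and crosslinked outside the cell by lysyl oxidases. Serpinh1 was at 9.03 FPKM in sham, 13.9 on day 1, 24.8 on day 3, 21.5 on day 7, 16.2 on day 14 and 8.04 on day 28. Lox was at 1.97 FPKM on day 1, 4.55 on day 3 and 2.99 on day 7, and was not listed in sham, day 14 and day 28, so no ratio is given. Loxl1 was at 0.822 FPKM in sham, 1.07 on day 1, 2.67 on day 3, 2.72 on day 7, 2.65 on day 14 and 0.761 on day 28. Serpinh1 and Lox were highest on day 3, before the maximum of the type I and III chains on day 7, and Loxl1 was level from day 3 to day 14. Day 7 over day 3 had log2 ratios of -0.20 for Serpinh1 and -0.59 for Lox, under the threshold. Loxl2 and Pcolce had no value under their own identifiers.

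Between successive days, the main steps were from day 1 to day 3 and from day 14 to day 28. From day 1 to day 3, 17 of 39 members were higher (8.89% of all genes) and 0 lower (3.55%). The largest log2 ratio was that of Col3a1 (4.31), followed by Postn (2.93), Fn1 (2.42), Emilin1 (2.39) and Col1a1 (2.32). From day 3 to day 7, 3 of 39 were higher (3.22% of all genes), Lama2, Postn and Hspg2, and 0 lower (2.81%). The library of day 7 thus differed little from that of day 3 over most members.

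From day 7 to day 14, 0 of 41 members were higher (4.17% of all genes) and 4 were lower (8.52% of all genes), Fn1, Fbln2, Col8a1 and Lox, the last pair not listed on day 14. From day 14 to day 28, 0 of 37 were higher (6.94% of all genes) and 23 lower (7.88%). All 3 chains of types I and III were among them, with log2 ratios of -2.89 (Col1a1), -2.22 (Col1a2) and -4.29 (Col3a1). Col4a1 (-0.76), Col4a2 (-0.33) and Fn1 (-0.61) were not past the threshold. The count lower from day 7 to day 14 was near the share of all genes. The counts of both steps rest on the day 14 library.

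By the library of the highest value, among the 41 members of at least 1 FPKM in any library, 14 were highest on day 3, 16 on day 7 and 11 on day 14. None was highest in sham, on day 1 or on day 28. Of all 12709 genes, 16.5% were highest on day 3, 14.3% on day 7 and 26.8% on day 14, against 12.9% in sham, 15.6% on day 1 and 14% on day 28. The groups were placed as follows. Of the 5 elastic fibre genes 4 were highest on day 3, of the 5 fibrillar collagens 4 on day 7, and of the 6 small leucine-rich proteoglycans 5 on day 14. The 10 basement membrane genes were spread over day 3 (4 genes), day 7 (3) and day 14 (3). Without the day 14 library, an alternative chosen after seeing the data, 16 of 39 were highest on day 3 and 23 on day 7.

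**Figure D4:**
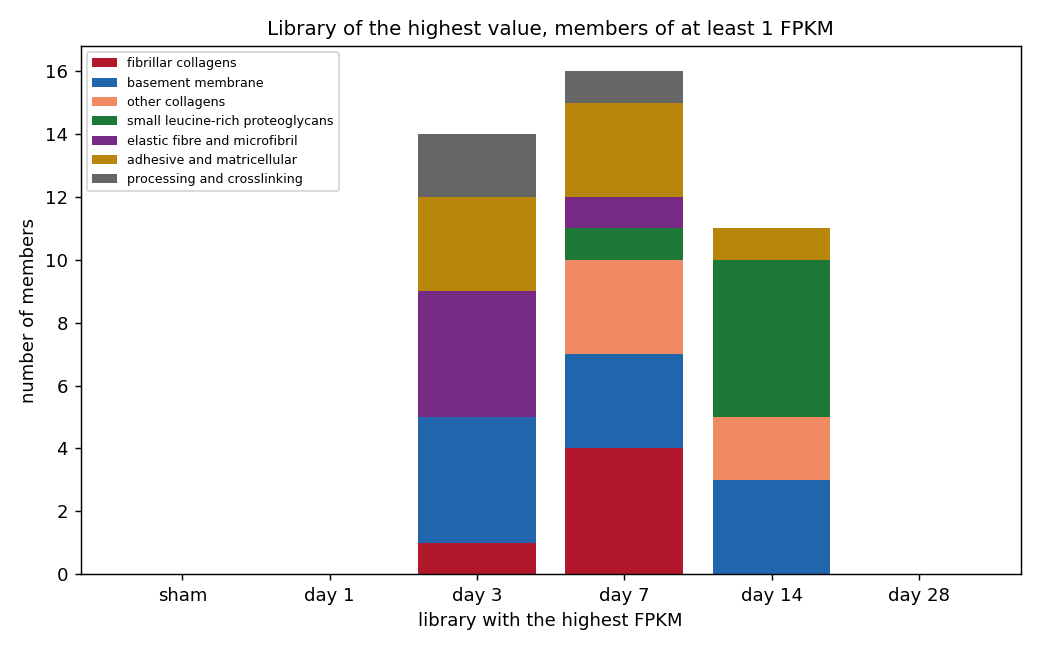
Number of members whose FPKM was highest in each library, of the 41 members of at least 1 FPKM in any library, coloured by role. All bars lie on day 3 (14 members), day 7 (16) and day 14 (11), with the small leucine-rich proteoglycans (green) mostly on day 14.

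A list of 52 other genes of matrix assembly was counted in the same way. Of these, 2 of 37 were higher on day 1 (5.11% of all genes) and 11 of 38 on day 3 (8.54%). The count was 10 of 41 on day 7 (8.53%), 11 of 38 on day 14 (8.97%) and 2 of 37 on day 28 (3.68%). Across the days 0 to 2 were lower (2.12% to 6.92% of all genes). On day 1 and day 28 the share higher was 5.41%, near that of all genes. The median log2 ratio of the list without a minimum was 0.50 on day 3, 0.52 on day 7 and 0.44 on day 14. Over all genes listed in both libraries it was 0.026, 0.030 and 0.11. Among those of at least 1 FPKM in both libraries of a comparison, a stricter minimum than that of the counts, the 5 with the largest ratio were Ecm1 (2.39 on day 3), Tgfbi (2.27 on day 3), Mfap2 (1.63 on day 14), Lama4 (1.34 on day 3) and Mfap4 (1.34 on day 14). Lama4, the alpha chain of endothelial basement membranes, was at 1.10 FPKM in sham and 2.94 on day 3, where Lama2 was at its lowest. Of the hydroxylases that prepare collagen for folding and crosslinking, Plod1 (log2 ratio 1.07 on day 7) and Plod2 (1.28 on day 3) were past the threshold. So were P4ha3 (1.84 on day 3) and P4ha2 (1.02 on day 14). Plod3, P4ha1, P3h1 and P3h3 passed it on no day.

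Markers of the cell types that make matrix were followed beside these values. The fibroblast markers that had a value (5 of 6) summed to 2.81 FPKM in sham, 3.69 on day 1, 4.60 on day 3, 5.35 on day 7, 7.43 on day 14 and 3.42 on day 28. Of these, Lsp1, which leukocytes also express, gave 1.08 FPKM in sham and 6.43 on day 14. Pdgfra had no value in any library, and Dpt was listed on day 1 alone. Pi16 and Twist1 were not listed on day 14, and Col13a1 was at 0.478 FPKM in sham and 0.999 on day 14. All 6 meningeal markers had a value, and summed to 41.6 FPKM in sham and 41.9 on day 28, with 62.5 on day 14 as the highest. Igf2 alone gave 22.8 FPKM in sham and 33.2 on day 14. Igf2, Slc6a13 and Crabp2 were highest on day 14, Slc47a1 on day 3 and Aldh1a2 on day 1. Slc22a6 lay below sham in every library after stroke. The 7 mural cell markers summed to 29.4 FPKM in sham and were highest on day 3 (46.3), and the 5 endothelial markers to 10.2 in sham and 19.3 on day 3. Type IV collagen was also highest on day 3, as were both sums, of which Rgs5 gave 23.4 of the mural FPKM on that day. Single mural markers were highest elsewhere, Tagln on day 1, Cspg4 and Acta2 on day 7 and Kcnj8 on day 14, and the endothelial marker Cldn5 was listed on day 1 alone. The microglia or macrophage markers (4 of 5 with a value) summed to 33.5 FPKM in sham, 81.9 on day 3, 91.7 on day 7 and 76.4 on day 14. The 4 astrocyte markers summed to 281 in sham and 949 on day 3, of which Gfap gave 85.8 and 698 FPKM. In the same libraries Aqp4 was at 27.0 and 50.6 FPKM, Slc1a3 at 144 and 176, and Aldh1l1 at 24.5 and 25.2. The part of any of these cell types in the matrix values was not tested.

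**Figure D5:**
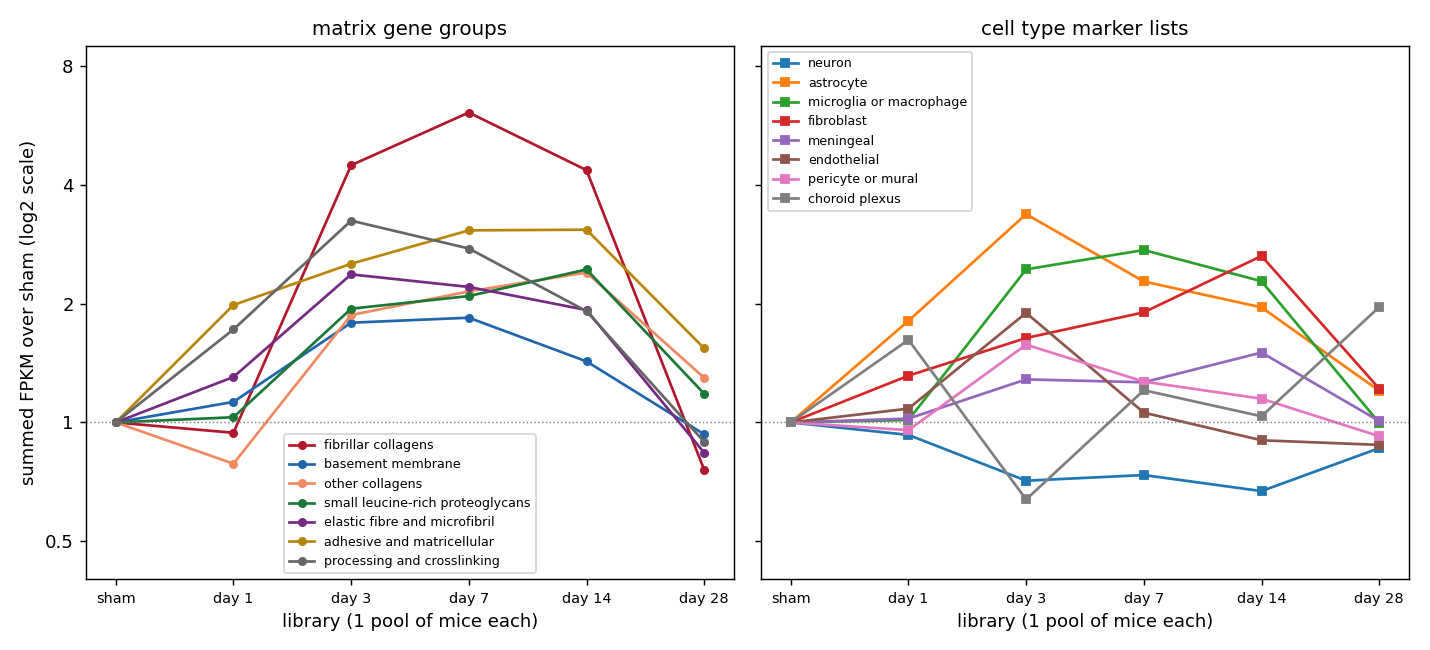
Summed FPKM over its sham value (log2 scale) for the 7 groups of members (left) and the 8 cell type marker lists (right) in the 6 libraries, 1 pool of mice each. The fibrillar collagens reach 6.10 times sham on day 7, while the meningeal markers go from 41.6 FPKM in sham to at most 62.5 FPKM on day 14.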

How the data were processed

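RNA of the whole ipsilateral cortex was measured by poly(A)-selected, strand-specific, paired-end sequencing of 150 bases in 6 libraries, 1 per group, each a pool of 3 mice. The values deposited by the authors are FPKM of starts and ends of transcripts and of splicing events. The submitters' processing notes name Trimmomatic 0.30, HISAT2 2.0.1, HTSeq 0.6.1 and mm10, and the program that made the events is not given in the sources used here. The stated average depth is 33.6 M reads, the depth of each library is unknown, and so no interval or detection floor is given.

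The plan assumed 1 FPKM per gene. A gene value was built instead as the largest of the summed starts, the summed ends and any single event, a lower bound on the locus, by a rule first chosen in earlier work with the study's results known. A gene missing from a library counts as 0, and no ratio is printed for it. Genes of at least 1 FPKM in 1 of 2 libraries were compared by log2 ratio with a pseudocount of 0.1 and a threshold of 1, with no test, as each group has 1 library. Medians of the fibrillar and basement membrane genes are given over all listed genes. The plan had set the minimum of 1 FPKM for them too, and the medians with it are given beside them. The members and lists were chosen with earlier results of these data known. All 44 members are named, with values in every library for those of at least 1 FPKM in any library. Of 52 other matrix genes, the 5 with the largest ratio among those of at least 1 FPKM in both libraries are named. The hydroxylases named beside them (Plod, P4ha and P3h genes) were chosen after their values were seen. All 1059 events of the members lie on the right strand over the annotated gene. Of the identifiers, 15411 matched GENCODE M21 (GRCm38), which also gave coordinates, lengths and exon sequences. The calls were run on simulated data with planted changes past the threshold and with starts and ends that each summed to the gene value. That run checks the code only, and not genes whose starts and ends disagree. Alternatives covered the pseudocount, the minimum, unlisted genes, the gene value, scaling, transcript length and the threshold. The work was done in Python 3.11.15 with pandas 2.3.3, numpy 2.4.6, matplotlib 3.10.9 and scipy 1.17.1.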

Additional observations from a re-analysis of the deposited data

Results flagged for a closer look

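Loxl2 and Pcolce, which had no value under their own identifiers, had signal in events that the comparisons did not use, because the events inside their annotated spans carry the identifier of another gene. This signal was above sham on day 1, 3 and 7 for both genes and on day 14 for Pcolce, with no replicate. The 5 events inside Loxl2, a lysyl oxidase (GRCm38 chr14:69609068-69695834), carry the identifier of Mir6950, a microRNA gene within that span. They gave 0.469 FPKM on day 1, 1.41 on day 3 and 0.789 on day 7, and were not listed in sham, day 14 and day 28, the same libraries in which Lox was not listed.

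The 63 events inside Pcolce, the enhancer of procollagen C-proteinase (chr5:137605103-137613784), carry the identifier of Fbxo24, whose span overlaps the 5′ end of Pcolce. They gave 5.46 FPKM in sham, 6.20 on day 1, 8.10 on day 3, 8.40 on day 7, 11.95 on day 14 and 1.70 on day 28. Day 14 was highest and day 28 lowest. The share of Fbxo24 itself in these values was not tested.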

How the results depend on the processing

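With 1 library per group, no replicate could be left out. No paired analysis was possible because each group has 1 library. Leaving out the day 14 library for the highest values and adding Loxl2 and Pcolce were alternatives chosen after seeing the data. Of the summary values under alternatives, 208 stayed within 1.5 times a count or close to the median, and 40 moved. Counts are of members higher than sham unless stated. With a pseudocount of 1, the counts were 3 on day 1, 15 on day 3 and 13 on day 14, and those lower were 0 on day 3 and day 28. With a pseudocount of 0.01, and with each library scaled to a median ratio of 0, 1 member was lower on day 14. With a minimum of 5 FPKM the counts were 1 on day 1, 12 on day 3, 13 on day 7 and 11 on day 14, with 0 lower on day 3 and day 28. The medians were then 2.62 (day 3) and 3.05 (day 7) for 3 fibrillar collagens and 1.33 on day 3 for 2 basement membrane genes. Without a minimum, 1 was higher on day 28, and 1, 2 and 2 were lower on day 1, 14 and 28. With a threshold of 2 the counts were 1, 5, 8 and 5 on day 1, 3, 7 and 14, with 0 lower on day 3 and day 28. With Loxl2 and Pcolce added, 2 were lower on day 28. Summed ends gave 1 higher and 2 lower on day 28. Summed starts gave 2 on day 1, 12 on day 14 and 1 on day 28, with 1 lower on day 1, 0 on day 3 and 5 on day 14. They put 1 member highest in sham and 6 on day 14. Their medians were 3.16 (day 3) and 1.29 (day 14) for the fibrillar collagens and -1.71 (day 14) for the basement membrane genes. Of the single genes, Lamb1 (-3.59), Nid1 (-1.28) and Col6a1 (-0.23) reversed on day 14 with summed starts, and 26 moved without reversing. The cause was not tested. After correction for transcript length, 26 members were higher on day 14, against 20. Counting genes listed in both libraries, events inside the annotated span or basement membrane genes without Col15a1 and Col18a1 moved no summary value.

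The mice behind each library were pooled, so spread between mice is unknown. Sham was taken on day 7 alone. How many reads stand behind values under about 1 FPKM is unknown. Such values include those of Mfap5, of Postn in sham and of the Postn exon forms. They also include the Fn1 form with the extra domain A exon in sham, on day 1 and on day 28.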
